A study of Mus musculus with 6 samples.

Results

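The transcripts described here are 8 genes of bile duct epithelium and of the simple epithelial keratins, chosen by symbol from the 49315 genes of a count table. They are Spp1, Krt7, Krt8, Krt18, Krt19, Epcam, Sox9 and Slc4a4, and all 8 were found under a single identifier each. Bulk RNA was sequenced from sorted hepatocytes of male wild-type mice of the strain C57BL/6J, which had received at age 8 weeks, by the hydrodynamic route, 20 µg of the transposon plasmid pT3-TTR-miR-206-IRES-GFP and 0.8 µg of pCMV/Sleeping Beauty Transposon. The miR-206 group (3 libraries) was the GFP-positive fraction 4 weeks later, in which the TTR promoter, active in hepatocytes, drives both miR-206 and GFP. The control group (3 libraries) was the GFP-negative fraction, which the design text takes from the same 3 injected mice, whereas its treatment is labelled as empty vector. Hence plasmid uptake, GFP and the sort differ between the groups together with miR-206 and cannot be told apart from it. In bulk samples, fewer cells of a type and less RNA per cell also cannot be told apart.

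Keratins form the intermediate filaments of epithelial cells as obligate heteropolymers of a type I chain, such as Krt18 or Krt19, and a type II chain, such as Krt7 or Krt8. Hepatocytes contain only the Krt8 and Krt18 pair, while the cholangiocytes that line the bile ducts add Krt7 and Krt19. Cholangiocytes also express the adhesion molecule Epcam, the transcription factor Sox9, which acts in duct specification, and osteopontin, the secreted integrin ligand encoded by Spp1, which other liver cells including macrophages can also make. Slc4a4 encodes an electrogenic sodium bicarbonate cotransporter, and bicarbonate secretion is a known function of the duct epithelium.

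The libraries held 4157947 to 5724329 counts in the miR-206 group and 8966590 to 15244017 in the control group. Mitochondrially encoded genes took 11.2% to 63.8% of the counts in miR-206 libraries and 9.16% to 36.0% in control libraries. The counts of 1915 receptor genes of smell and pheromone sensing served as a background, since liver cells are not known to express them. It was 3.73 to 5.50 counts per exonic kb in miR-206 libraries and 1.27 to 3.08 in control libraries, which corresponds to 18.5% to 25.9% of nuclear counts in miR-206 libraries and 1.25% to 6.65% in control libraries. Defining markers of hepatocytes were present in both groups. Of these, 9 summed to 16445 to 79696 CPM in miR-206 libraries and 51388 to 98027 CPM in control libraries. CPM here is the count scaled by the total of the library. Alb had the highest count of the 9 in every library, and Cps1 and Hnf4a had the lowest. Hnf4a averaged 4.32 times background in miR-206 libraries and 378 times in control libraries. Control 1 stood apart from the other controls, with a correlation of log2 CPM of 0.827 and 0.836 with them against 0.981 between them, so results that rest on it are given with and without it. Mir206 was counted at 0 in all 6 libraries, and these mRNA libraries do not measure the mature microRNA, so the labels could not be checked on it.

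The mature mouse miR-206 strand is shown with its seed, bases 2 to 8, in capitals. Below it is the only match to that seed found among the 8 genes in their longest annotated 3' UTRs. The microRNA lies at chr1:20679055-20679076 on the plus strand (RefSeq, GRCm38.p6). The match is an 8mer, ACATTCCA, in the 3' UTR of Epcam, at chr17:87650774-87650781 on the plus strand (GENCODE M21, GRCm38), bases 305 to 312 of 660, and is shown in capitals with 10 bases on each side.
mmu-miR-206-3p: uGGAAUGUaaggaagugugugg
Epcam site: tgcgtcgcaaACATTCCAacagtagaat
Spp1, Krt7, Krt8, Krt18, Krt19, Sox9 and Slc4a4 held neither an 8mer, nor the 7mer ACATTCC, nor the 7mer CATTCCA. Across 21045 protein-coding genes with a 3' UTR, 10.1% held the 8mer or the 7mer ACATTCC and 16.9% held any of the 3 kinds.

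Of the 8 members, 7 fell in miR-206 cells and none rose, with the counts as deposited and TMM scaling (edgeR quasi-likelihood test, adjusted p under 0.05). Over all 24382 genes tested, 29.6% fell and 25.8% rose, so that falls were common. At an unadjusted p under 0.05 the same 7 of 8 passed, and DESeq2 also called 7 lower and 0 higher. With library size alone or upper-quartile factors 5 fell, without Sox9 and Slc4a4. The median log2 fold change was -3.23 over the members and 0.45 over all genes tested. All 8 members are protein-coding, and tested protein-coding genes with a 3' UTR had lower medians than 0.45. These were -0.34 over the 1849 with the 8mer or the 7mer ACATTCC and -0.58 over the 14974 without. The miR-206 values lay below the control values in every library for 7 of the 8, an order shown by 30.3% of all genes tested, and Epcam was the exception. The members were chosen by name with earlier results of these data known, and their share is given beside that of all genes as a description.

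**Figure D1:**
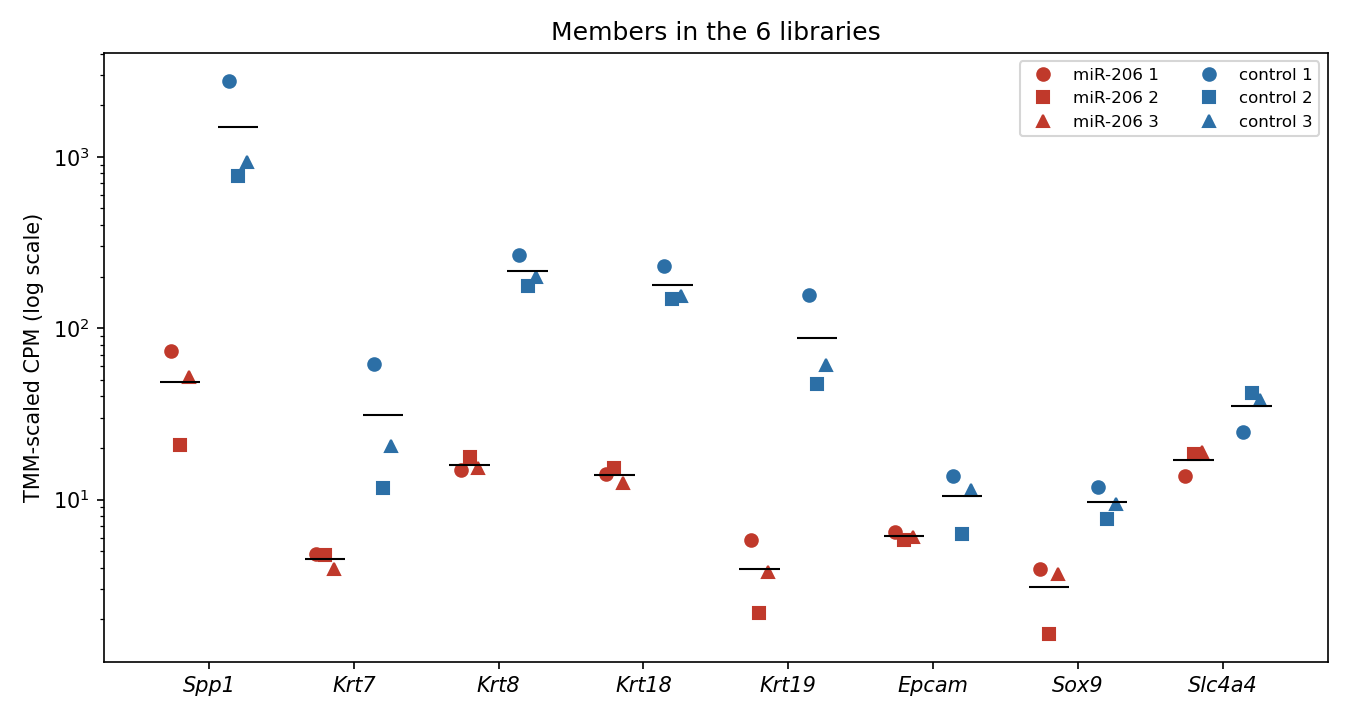
TMM-scaled CPM of the 8 members (log axis) in each of the 3 miR-206 libraries (red, left of each gene) and 3 control libraries (blue, right), with the arithmetic mean of each group as a line. Spp1 has the highest level in both groups, and the groups overlap only for Epcam.

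Spp1 (ENSMUSG00000029304, chromosome 5, 104435118 to 104441050, plus strand, GRCm38) had the lowest log2 fold change of the 8 members on the TMM scale with the counts as deposited. It was counted at 582, 114 and 394 in miR-206 libraries 1, 2 and 3 and at 21072, 7471 and 8289 in control libraries 1, 2 and 3. These are 73.6, 20.7 and 51.6 TMM-scaled CPM in miR-206 cells, against 2784, 775 and 939 in control cells. The lowest control library stood 10.5 times above the highest miR-206 library. Spp1 averaged 48.6 ± 26.6 CPM in miR-206 cells and 1499 ± 1116 CPM in control cells (SD, n = 3 each). The edgeR fit gave -4.94 on the log2 scale (SE 0.78, adjusted p = 0.000757). Control 1 was 3.25 times the mean of the other 2 controls, and without it the value was -4.21 (adjusted p = 1.47e-07). Without miR-206 replicate 1 it was -5.60.

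Krt19, the type I keratin of duct cells that hepatocytes lack (ENSMUSG00000020911, chromosome 11, 100140810 to 100148665, minus strand), followed with the next lowest fold change among the members. It had 46, 12 and 29 counts in miR-206 libraries, or 5.82, 2.18 and 3.80 CPM, against 1180, 457 and 537 counts, or 156, 47.4 and 60.8 CPM, in control libraries. The groups did not overlap, and miR-206 replicate 2 was the lowest library, as it was for Spp1. The log2 fold change of Krt19 was -4.46 (SE 0.60, adjusted p = 0.00039). Control 1 was again the highest control, at 2.88 times the mean of the others, and the value was -3.81 without it and -5.08 without miR-206 replicate 1.

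Krt7, the type II partner of Krt19 in ducts (ENSMUSG00000023039, chromosome 15, 101411043 to 101430313, plus strand), was low in all libraries. It had 38, 26 and 30 counts in miR-206 libraries (4.81, 4.73 and 3.93 CPM) and 467, 112 and 181 in control libraries (61.7, 11.6 and 20.5 CPM). The receptor background over its 7.05 exonic kb would give 38.8, 26.3 and 38.4 counts in the miR-206 libraries, so the gene lay at or under background there, at 0.981, 0.989 and 0.781 times it. In the control libraries it lay at 10.9 to 21.5 times background. The log2 fold change with the counts as deposited was -2.80 (SE 0.57, adjusted p = 0.0028), and -1.91 (adjusted p = 1.59e-05) without control 1, which was 3.84 times the mean of the other controls. After background subtraction no count was left in the miR-206 libraries, and no fold is given.

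Sox9 (ENSMUSG00000000567, chromosome 11, 112782224 to 112787760, plus strand) was counted at 31, 9 and 28 in miR-206 libraries and at 90, 74 and 83 in control libraries. On the TMM scale these are 3.92, 1.64 and 3.67 CPM in miR-206 cells and 11.9, 7.68 and 9.40 CPM in control cells, without overlap. The miR-206 values were again near background, at 1.36, 0.583 and 1.24 times it, against 7.07 to 15.8 times in the controls. Its log2 fold change was -1.63 (SE 0.43, adjusted p = 0.00984) and stayed past the threshold whichever single library was dropped. It did not pass with library size alone (-0.54, adjusted p = 0.433) or with upper-quartile factors (-0.83, adjusted p = 0.163).

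Epcam (ENSMUSG00000045394, chromosome 17, 87635979 to 87651129, plus strand) had the smallest difference among the 8 on the same scale. It was counted at 51, 32 and 46 in miR-206 libraries and at 104, 61 and 100 in control libraries. Its levels of 6.45, 5.82 and 6.02 CPM in miR-206 cells overlapped those of 13.7, 6.33 and 11.3 CPM in control cells, where control 2 lay within the miR-206 range. The log2 fold change of -0.77 (SE 0.37, adjusted p = 0.097) did not pass the test, although it passed without control 2 (-1.11, adjusted p = 0.0376). Epcam lay at 3.84 to 4.23 times background in miR-206 libraries and at 15.4 to 35.8 times in control libraries.

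Slc4a4, the bicarbonate cotransporter gene (ENSMUSG00000060961, chromosome 5, 88886818 to 89239653, plus strand), was counted at 109, 101 and 145 in miR-206 libraries and at 187, 403 and 338 in control libraries. Its levels were 13.8, 18.4 and 19.0 CPM in miR-206 cells, against 24.7, 41.8 and 38.3 CPM in control cells. Control 1 was the lowest control for this gene, at 0.617 times the mean of the others, the opposite of its place for the other 7 members. The log2 fold change was -1.04 (SE 0.33, adjusted p = 0.0227). It did not pass without miR-206 replicate 2 (adjusted p = 0.0644), control 2 (0.0708) or control 3 (0.065), nor with library size alone (0.03, adjusted p = 0.947), upper-quartile factors (-0.15, adjusted p = 0.603) or the background subtracted (-0.76, adjusted p = 0.0833). The gene lay at 1.83 to 2.50 times background in miR-206 libraries and at 5.61 to 25.7 times in control libraries.

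Krt8 and Krt18, the keratin pair that hepatocytes and duct cells both contain, fell by nearly the same amount. They lie near each other on chromosome 15, Krt8 (ENSMUSG00000049382) on the minus strand at 101996698 to 102004482 and Krt18 (ENSMUSG00000023043) on the plus strand at 102028180 to 102032027. Krt8 was counted at 118, 97 and 117 in miR-206 libraries and at 2035, 1702 and 1751 in control libraries. These are 14.9, 17.6 and 15.3 CPM in miR-206 cells and 269, 177 and 198 CPM in control cells, a log2 fold change of -3.75 (SE 0.44, adjusted p = 0.000294). Krt18 was counted at 112, 84 and 95 in miR-206 libraries and at 1751, 1426 and 1368 in control libraries. Its levels were 14.2, 15.3 and 12.4 CPM in miR-206 cells and 231, 148 and 155 CPM in control cells, a log2 fold change of -3.67 (SE 0.43, adjusted p = 0.000297). Both stayed past the threshold whichever single library was dropped, with values of -3.96 to -3.63 for Krt8 and -3.88 to -3.52 for Krt18. Control 1 exceeded the mean of the other controls by less than for Spp1, Krt7 and Krt19, at 1.43 times for Krt8 and 1.53 times for Krt18. Both stood well above background, at 10.96 to 13.3 times for Krt8 and 12.1 to 15.7 times for Krt18 in miR-206 libraries.

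Because these genes moved together, the RefSeq promoter windows of both are shown (GRCm38.p6, 250 bases before to 50 after the start), at chr15:102004293-102004592 on the minus strand for Krt8 and chr15:102027966-102028265 on the plus strand for Krt18. Capitals mark matches on either strand to the TATA box TATAAA, the GC box GGGCGG and the AP-1 motif TGANTCA.
Krt8: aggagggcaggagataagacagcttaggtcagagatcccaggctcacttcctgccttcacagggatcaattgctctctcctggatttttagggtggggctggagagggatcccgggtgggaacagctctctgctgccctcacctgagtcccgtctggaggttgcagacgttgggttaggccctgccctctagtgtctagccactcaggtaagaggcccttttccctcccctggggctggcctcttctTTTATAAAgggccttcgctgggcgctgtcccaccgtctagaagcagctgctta
Krt18: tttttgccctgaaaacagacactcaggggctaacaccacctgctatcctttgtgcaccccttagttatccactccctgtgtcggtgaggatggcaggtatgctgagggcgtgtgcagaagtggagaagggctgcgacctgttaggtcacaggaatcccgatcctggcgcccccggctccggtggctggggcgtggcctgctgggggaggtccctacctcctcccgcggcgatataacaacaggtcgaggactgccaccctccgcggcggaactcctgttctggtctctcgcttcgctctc
The Krt8 window held TATAAA at bases 248 to 253 and 250 to 255 on opposite strands, overlapping each other, and neither of the other motifs. The Krt18 window held none of the 3. Over all 32851 RefSeq windows 13.6% held TATAAA, 35.7% GGGCGG and 7.8% TGANTCA. A match describes the letters of the window and not a bound site.

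**Figure D2:**
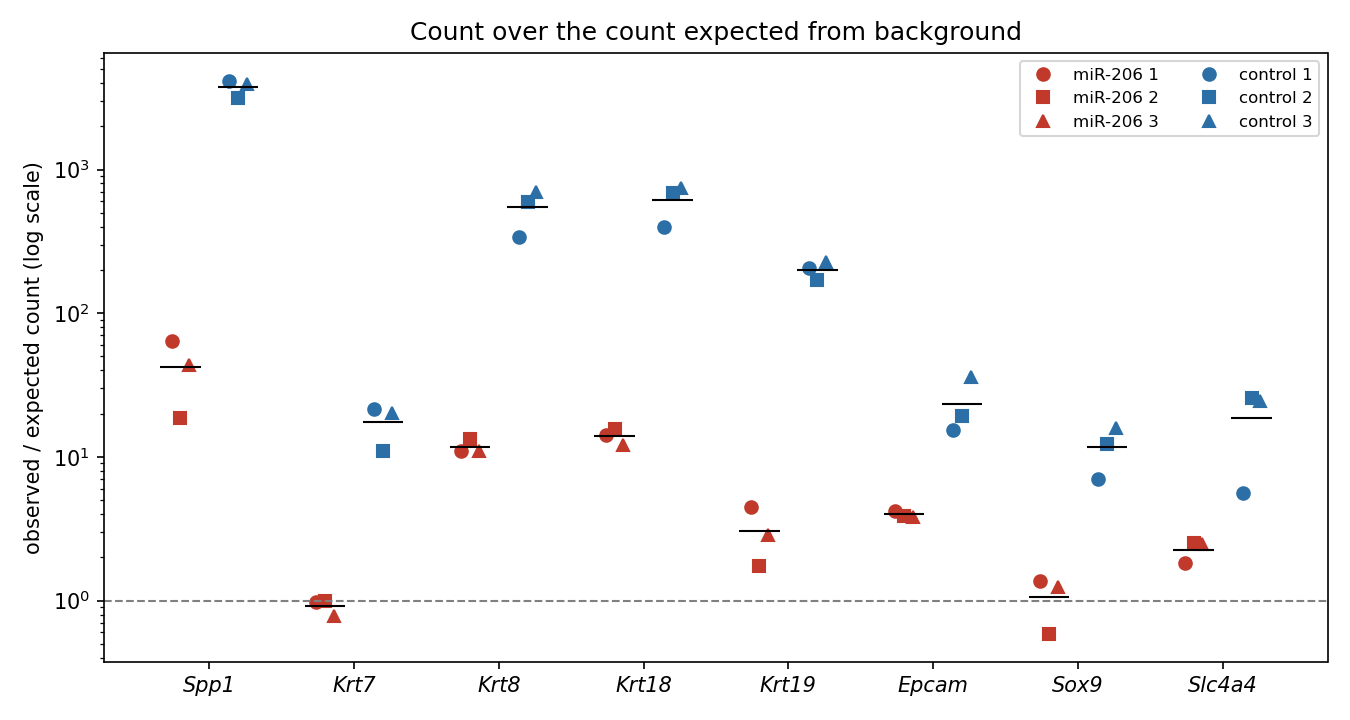
Count of each member divided by the count that the receptor background would give over its exonic length (log axis), per library, with the group mean as a black line and background at 1 as a dashed line. Krt7 and Sox9 sit at about background in the miR-206 libraries (red), while all 8 members sit above 5 times background in the control libraries (blue).

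Levels were then compared between members per exonic kb, on the TMM scale. In miR-206 cells the order was Spp1 (29.5 ± 16.1 CPM per kb), Krt18 (9.72 ± 0.997), Krt8 (8.15 ± 0.750), Epcam (2.78 ± 0.147), Krt19 (2.12 ± 0.982), Slc4a4 (1.58 ± 0.263), Sox9 (0.744 ± 0.303) and Krt7 (0.637 ± 0.0691) (SD, n = 3 each). In control cells it was Spp1 (909.8 ± 677 CPM per kb), Krt18 (124 ± 32.2), Krt8 (110 ± 24.6), Krt19 (47.5 ± 31.9), Epcam (4.77 ± 1.72), Krt7 (4.44 ± 3.79), Slc4a4 (3.23 ± 0.835) and Sox9 (2.34 ± 0.512). In control cells the mean ± SD ranges of Krt18 and Krt8 overlapped, as did those of Epcam and Krt7, Krt7 and Slc4a4, and Slc4a4 and Sox9. In miR-206 cells the ranges of Krt18 and Krt8, Krt19 and Slc4a4, and Sox9 and Krt7 overlapped. Those of Epcam and Krt19 also overlapped there, although Krt19 stood far above Epcam in control cells. The SD is between libraries and does not compare genes within a library, where Krt8 lay below Krt18 per kb in every library.

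Ratios between members within a library do not depend on how libraries are scaled. The ratio of Krt8 to Krt18 per exonic kb was 0.773, 0.847 and 0.904 in miR-206 libraries, against 0.853, 0.876 and 0.939 in control libraries, and the groups overlapped (exact two-sided permutation test, p = 0.4, smallest possible 0.1 with 3 against 3). With the background subtracted the ratio averaged 0.829 ± 0.0699 in miR-206 libraries and 0.889 ± 0.0449 in control libraries (SD, n = 3 each, exact permutation p = 0.4). The difference in the partners' ratio was thus within the spread between libraries.

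The ratio of Spp1 to Krt19 was lower in all miR-206 libraries as deposited, at 14.2, 10.7 and 15.3, against 20.1, 18.4 and 17.4 in control libraries (exact permutation p = 0.1, 0.175 after Benjamini-Hochberg adjustment over 7 ratios). With the background subtracted it was 18.0, 23.9 and 22.9 in miR-206 libraries, against 20.2, 18.5 and 17.4 in control libraries, where the groups overlapped (exact permutation p = 0.3). The direction between these duct genes thus depended on the subtraction. The ratio of Krt19 to Krt8, duct keratin to shared keratin, was 0.352, 0.0598 and 0.188 after subtraction in miR-206 libraries and 0.611, 0.282 and 0.323 in control libraries. These overlapped, since miR-206 replicate 1 exceeded controls 2 and 3 (exact permutation p = 0.3). The ratio of Krt19 to Krt18 also overlapped, at 0.161 ± 0.108 in miR-206 libraries and 0.357 ± 0.145 in control libraries after subtraction (SD, n = 3 each, exact permutation p = 0.2).

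As deposited, the ratio of Krt7 to Krt8 was 0.0895, 0.0745 and 0.0712 in miR-206 libraries, against 0.0637, 0.0183 and 0.0287 in control libraries, without overlap (exact permutation p = 0.1, adjusted p = 0.175). Krt7 was at or under background in the miR-206 libraries, so that no subtracted ratio could be formed there. The ratio of Sox9 to Krt19 was 0.302, 0.336 and 0.433 in miR-206 libraries, against 0.0342, 0.0726 and 0.0693 in control libraries, without overlap (exact permutation p = 0.1, adjusted p = 0.175). After subtraction it was 0.104 and 0.130 in miR-206 replicates 1 and 3, against 0.0295, 0.0671 and 0.0652 in control libraries, and miR-206 replicate 2 gave no value because Sox9 lay under background there.

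Epcam and Krt19 differed in how far they moved. The ratio of Epcam to Krt19 was 0.937, 2.25 and 1.34 in miR-206 libraries, against 0.0745, 0.113 and 0.157 in control libraries, without overlap (exact permutation p = 0.1, adjusted p = 0.175). After subtraction it was 0.919, 3.96 and 1.52 in miR-206 libraries and 0.0700, 0.108 and 0.154 in control libraries. The ratio was higher in all 3 miR-206 libraries under both treatments of the background, and the test cannot go below 0.1 at this size.

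**Figure D3:**
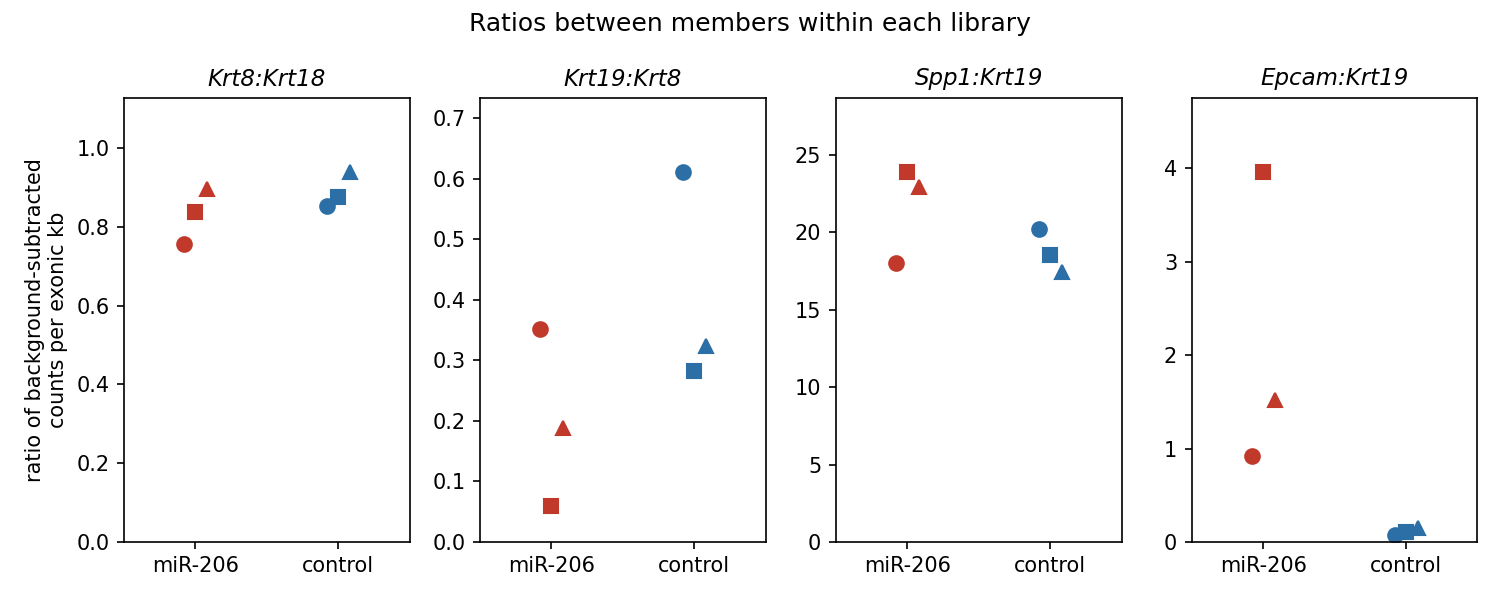
Ratios of background-subtracted counts per exonic kb between members, for each of the 3 miR-206 libraries (red, left) and 3 control libraries (blue, right) on axes that start at 0, with circles, squares and triangles for replicates 1, 2 and 3. Krt8 to Krt18 and Spp1 to Krt19 overlap between the groups, and Epcam to Krt19 does not.

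The hepatocyte markers also fell on the TMM scale, in 8 of 9 tested genes with a median of -2.31. Cps1 (-5.29, adjusted p = 0.000731) and Hnf4a (-4.30, adjusted p = 0.000693) fell furthest. The members were therefore also set against the summed hepatocyte markers, a sum in which abundant transcripts such as Alb weigh most. The count of markers that fell was 3 without miR-206 replicate 2 or 3, or without control 2 or 3. It was also 3 with library size alone, upper-quartile factors, the background subtracted or the replicate block, and with the 10-fold minimums described below the median was 0.47 and 0.78. With libraries scaled on the summed hepatocyte markers, 4 of the 8 members fell, against 2.59% of all genes tested, and 0 rose, against 57.4%. The median was -1.38 over the members and 2.44 over all genes on that scale. Of the 9 hepatocyte markers themselves, 3 fell and 1 rose on it, with a median of -0.17, so single markers were not level on it. The same numbers fell and rose with the background also subtracted. Spp1 (-3.48, SE 0.75, adjusted p = 0.00192), Krt19 (-2.93, SE 0.72, adjusted p = 0.000998), Krt8 (-1.70, SE 0.60, adjusted p = 0.0131) and Krt18 (-1.66, SE 0.61, adjusted p = 0.0172) were the members that fell. Krt7 was at -1.10 (adjusted p = 0.215). The log2 fold changes of Epcam, Sox9 and Slc4a4 turned positive on this scale, at 1.18, 0.17 and 1.29, and none of these passed the test.

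With the background subtracted and the same hepatocyte scale, 5 of 8 members fell, against 10.3% of all genes, around a median of 1.45 for all genes. The 5 were Spp1 (-3.52, adjusted p = 0.0054), Krt19 (-3.58, adjusted p = 0.00738), Krt8 (-1.82, adjusted p = 0.0321), Krt18 (-1.76, adjusted p = 0.0392) and Krt7, which had no counts left in miR-206 libraries. Sox9 (-2.29, adjusted p = 0.117), Epcam (0.85, adjusted p = 0.423) and Slc4a4 (0.65, adjusted p = 0.411) did not pass. With the background subtracted and TMM scaling on the nuclear protein-coding genes that averaged at least 10 times background, 6 members entered and Krt7 and Sox9 did not. Spp1 (-2.72, adjusted p = 0.0369), Krt19 (-2.71, adjusted p = 0.036) and Krt8 (-1.38, adjusted p = 0.0476) fell and Slc4a4 rose (0.99, adjusted p = 0.039), where 20.3% of all such genes fell. In the stricter form, where the mean count had to reach 10 times the mean background, 15.5% of genes fell and none of the 4 members that entered passed in edgeR, with 3 of them at an unadjusted p under 0.05. In that form Spp1 was at -2.47 (adjusted p = 0.0614), Krt19 at -2.46 (0.061), Krt8 at -1.13 (0.106) and Krt18 at -1.05 (0.139).

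**Figure D4:**
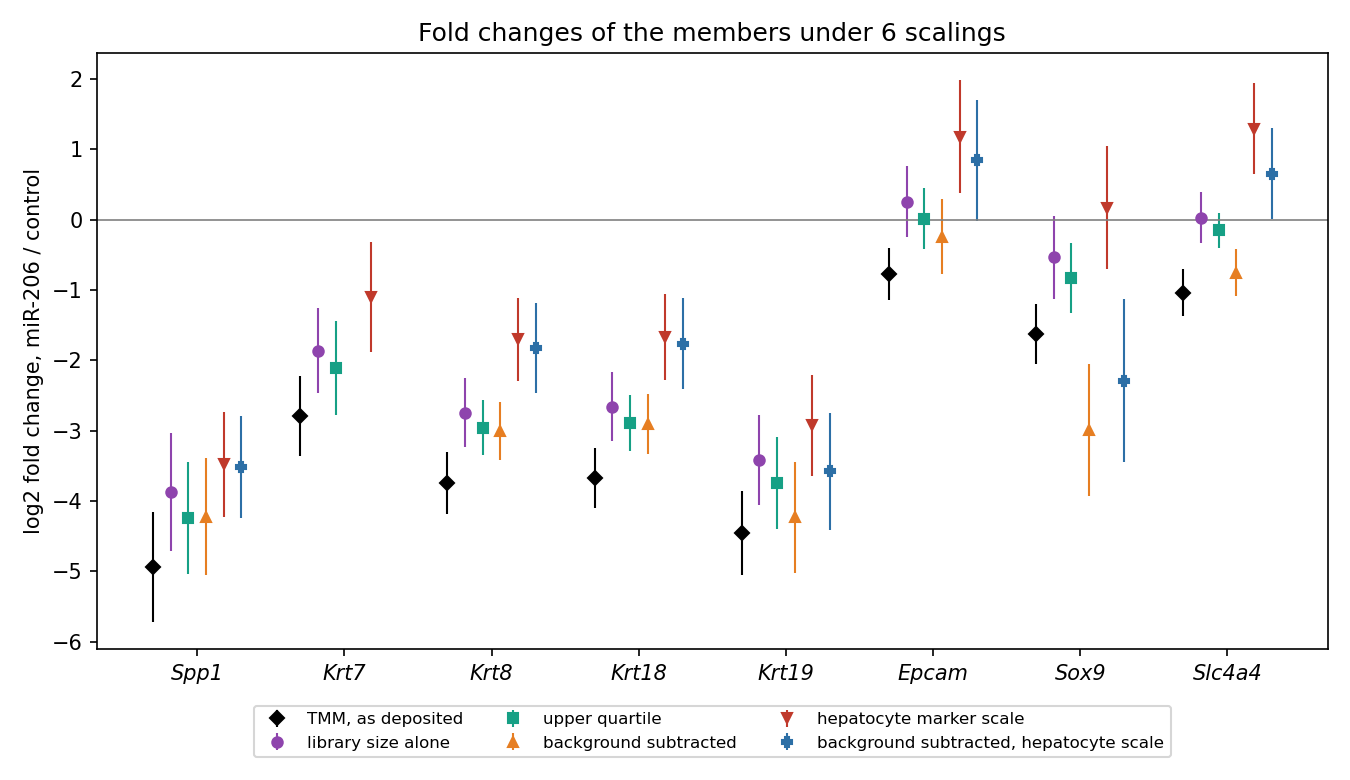
Log2 fold change of miR-206 over control for each member, with its standard error, under 6 scalings of the same counts, with Krt7 left out where subtraction leaves no miR-206 counts. Spp1, Krt8, Krt18 and Krt19 stay below 0 under all 6, whereas Epcam, Sox9 and Slc4a4 lie on both sides of 0.

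Markers of other cell types were also lower on the TMM scale, to which the counts of genes that fell refer, and their sums are given in CPM of the library total, without TMM factors. The summed level of 10 Kupffer cell and macrophage markers, cells that can also make osteopontin, was 62.2 to 82.7 CPM in miR-206 libraries and 291 to 985 CPM in control libraries, and 10 of 10 fell (median -4.81). Control 1, which had the highest Spp1, had the lowest macrophage sum of the controls. The sum of 7 sinusoidal endothelial markers was 105 to 196 CPM in miR-206 libraries and 248 to 298 CPM in control libraries, and 7 of 7 fell. That of 7 stellate cell markers was 123 to 190 CPM in miR-206 libraries and 161 to 336 CPM in control libraries, where 3 of 7 fell. Mesothelial markers, of another keratin-bearing epithelium, summed to 23.9 to 40.4 CPM over 5 genes in miR-206 libraries and 30.2 to 51.0 CPM in control libraries, where 3 of 5 fell. On the hepatocyte scale 6 of the 10 macrophage markers fell and 0 rose (median -2.24), 1 of the 7 endothelial markers fell and 0 rose (median -0.13), 0 of the 7 stellate markers fell and 3 rose (median 1.30), and 0 of the 5 mesothelial markers fell and 1 rose (median 0.69). Over all genes tested 2.59% fell and 57.4% rose on the hepatocyte scale, with a median of 2.44. No marker of these lists or of the 12 cholangiocyte markers was at 0 in all libraries of a group. The 12 cholangiocyte markers, 5 of them members, summed to 66.2 to 234 CPM in miR-206 libraries and 567 to 2675 CPM in control libraries. Spp1 alone gave 23.1 to 140 CPM of that sum in miR-206 libraries and 490 to 2350 CPM in control libraries. It was thus most of the sum in the controls. Of the 12 markers, 6 lay at most at 2 times background in every miR-206 library. The part of any other cell type, of the background or of the mitochondrial share in the members' values was not tested.

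The other genes of the same biology are given from lists that leave the members out. Of 29 other cholangiocyte markers 27 were tested, of which 19 fell, 0 rose and 8 did not pass, with a median of -2.58 (0.45 over all genes). Aqp1, a water channel of duct and endothelial cells, had the smallest p, and Lgals3 had the same adjusted p. Aqp1 averaged 2.28 ± 1.55 CPM in miR-206 cells and 86.5 ± 7.58 CPM in control cells (-5.20, SE 0.57, adjusted p = 0.000281). Tm4sf4, a tetraspanin-like membrane protein, averaged 16.4 ± 5.39 CPM in miR-206 cells and 338 ± 97.0 CPM in control cells (-4.37, adjusted p = 0.000297). Lgals3, the lectin galectin-3 that macrophages also make, averaged 5.71 ± 1.50 CPM in miR-206 cells and 48.3 ± 6.45 CPM in control cells (-3.07, adjusted p = 0.000281). Without control 1, 19 fell and 4 rose. On the hepatocyte scale 9 of the 27 fell and 3 rose, where 2.59% of all genes fell and 57.4% rose. With the background also subtracted 10 of 26 fell and 0 rose, against 10.3% and 35.2% of all genes. With the averaged 10-fold minimum 4 of 18 fell and 0 rose, where 20.3% of all such genes fell. In the stricter form 2 of 14 fell and 0 rose, where 15.5% fell. The medians were -1.46 and -1.28 there, against -0.23 and -0.14 over all such genes. In miR-206 libraries 9 of the 27 averaged under 2 times background, among them Aqp1 at 1.24 times.

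Of 50 further Krt genes 33 passed the filter on low counts, of which 15 rose, 1 fell and 17 did not pass, with a median of 1.59. The gene that fell was Krt23 (-2.58, adjusted p = 0.00384), itself among the cholangiocyte markers. The 15 that rose averaged 1.25 to 7.13 CPM in miR-206 cells. Krt20, a keratin of intestinal epithelium, had 43, 38 and 69 counts in miR-206 libraries and 9, 3 and 4 in control libraries (3.46, SE 0.58, adjusted p = 0.00104). Krt24 had 13, 15 and 23 counts in miR-206 libraries and 0, 1 and 2 in control libraries (4.25, SE 0.88, adjusted p = 0.00296). Krt74, a keratin of the hair follicle, had 48, 43 and 46 counts in miR-206 libraries and 5, 8 and 15 in control libraries (2.62, adjusted p = 0.00207). In the miR-206 libraries these 3 averaged 5.30, 1.91 and 5.80 times background, and 19 of the 33 averaged under 2 times. In the control libraries the 3 averaged 1.41, 0.408 and 3.83 times, while some others of the 15 averaged more there than in miR-206 libraries. With the background subtracted 13 were tested, 6 rose and 1 fell. With the averaged 10-fold minimum 1 was tested and 0 rose. On the hepatocyte scale 25 of the 33 rose and 0 fell, where 57.4% of all genes tested rose. The part of the background in these rises was not tested. Without miR-206 replicates 1, 2 and 3 the number that rose was 4, 5 and 4, and it was 23 without control 1, where 2 fell, and 10 without control 2.

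A list of desmosome genes, cytolinkers and other filament proteins held 12 genes, of which 10 fell and 0 rose, with a median of -1.53. The 3 with the smallest p were Vim, the filament protein of mesenchymal cells (-3.01, adjusted p = 0.000353), Plec, the cytolinker plectin (-2.87, adjusted p = 0.00042), and Lmna of the nuclear lamina (-2.16, adjusted p = 0.000562). Plec lay at 0.697, Vim at 1.47 and Lmna at 2.77 times background on average in miR-206 libraries. Epithelial junction genes fell in 9 of 10, with a median of -1.88. They included the tight junction gene Cldn12 (-3.47, adjusted p = 0.000329), at 1.50 times background on average in miR-206 libraries. The catenins Ctnna1 (-3.04, adjusted p = 0.000333) and Ctnnb1 (-2.81, adjusted p = 0.00035) were also among them. On the hepatocyte scale 0 of the 12 filament genes fell and 2 rose, and 0 of the 10 junction genes fell and 1 rose. The list medians there were 0.52 and 0.00, where the median of all genes was 2.44. With library size alone 3 of the 12 and 4 of the 10 fell, where 15.5% of all genes fell. With the averaged 10-fold minimum 1 of 7 filament genes fell and 2 rose (median 0.57). Of the 10 junction genes 1 fell and 1 rose (median 0.21), where the median of all such genes was -0.23. The number of the 12 that fell was 7 to 11 with 1 library left out.

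Of the Notch, Hippo and duct specification genes, 13 were tested, 7 fell and 0 rose, with a median of -0.99. Ctgf, a matricellular target of Yap, fell (-4.42, adjusted p = 0.000271), with 35, 14 and 29 counts in miR-206 libraries and 350, 977 and 759 in control libraries. Wwtr1, the Yap paralog Taz, fell (-1.62, adjusted p = 0.00211). The Notch target Hes1 also fell (-2.62, adjusted p = 0.0063), with 12, 1 and 14 counts in miR-206 libraries and 38, 101 and 64 in control libraries. In miR-206 libraries Ctgf averaged 1.80, Wwtr1 2.79 and Hes1 0.821 times background. Without control 1 the list had 8 that fell and 3 that rose. On the hepatocyte scale it had 1 that fell and 3 that rose, with a median of 1.04, where 57.4% of all genes rose.

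Osteopontin receptor genes fell in 3 of 10 and 0 rose, with a median of -0.36. They were the integrin chains Itgb5 (-2.26, adjusted p = 0.0017) and Itgb1 (-1.39, adjusted p = 0.0223) and the hyaluronan receptor Cd44 (-0.86, adjusted p = 0.0355). The number that fell was 6 without control 1, where 1 rose, 2 without miR-206 replicate 1, and 1 without any other single library, and on the hepatocyte scale 0 fell and 6 rose, with a median of 1.90. Of 14 bicarbonate handling genes 4 fell and 3 rose, with a median of -0.13. On the hepatocyte scale 0 of these 14 fell and 7 rose, with a median of 1.89. Over all genes tested 29.6% fell and 25.8% rose on the TMM scale, and 2.59% fell and 57.4% rose on the hepatocyte scale. The rises of the receptor and bicarbonate lists on the hepatocyte scale thus lay near the share of all genes. Car2, a carbonic anhydrase, fell (-2.78, adjusted p = 0.000782), with 53, 30 and 24 counts in miR-206 libraries and 419, 235 and 229 in control libraries. The anion exchanger Slc4a2 also fell (-2.44, adjusted p = 0.000641), and Slc4a10, a transporter known from neurons, rose (2.32, adjusted p = 0.000901). Slc4a2 lay at 0.850 times background and Slc4a10 at 2.43 times background in miR-206 libraries.

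**Figure D5:**
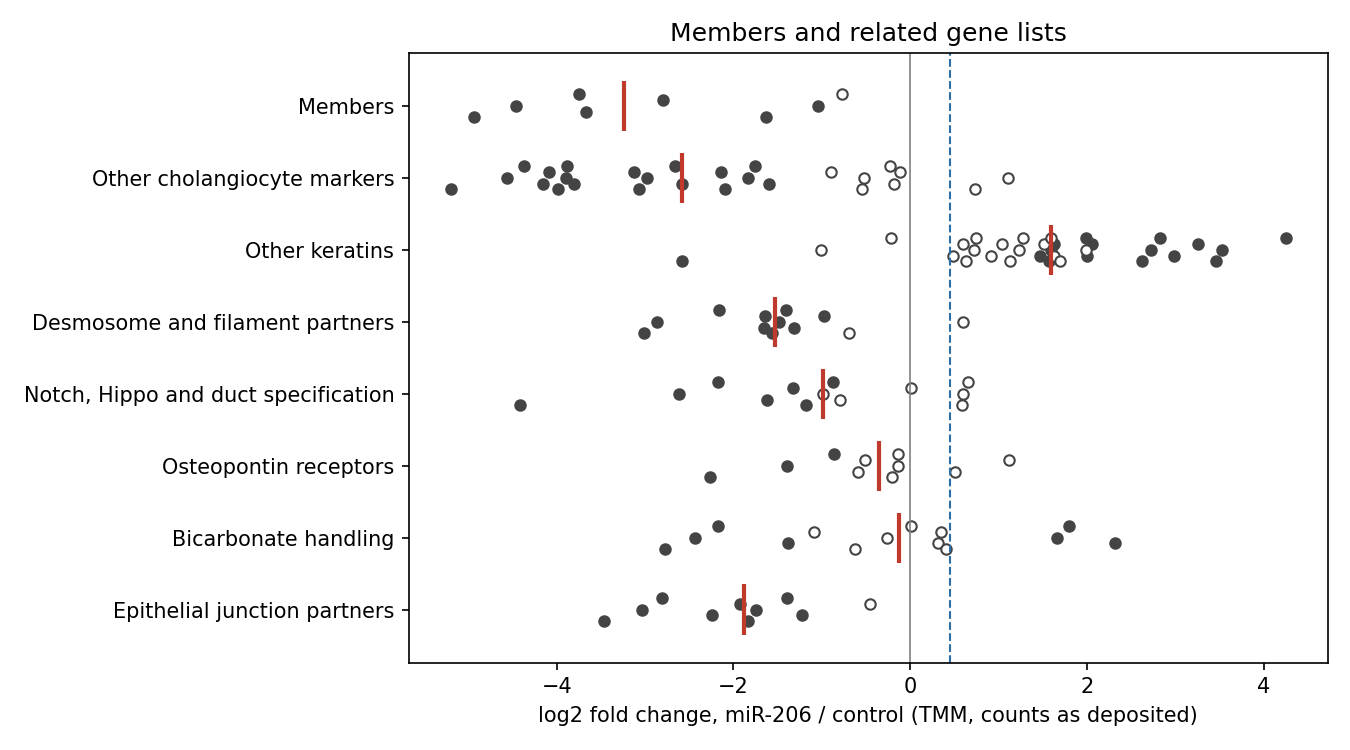
Log2 fold change of miR-206 over control (TMM, counts as deposited) for the 8 members and each related list, 1 point per tested gene, filled where the adjusted p is under 0.05, with list medians as red bars and the median of all tested genes (0.45) as a dashed line. The members and the other cholangiocyte markers lie lowest, and the other keratins lie above the dashed line apart from a few genes.

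The genes whose levels followed Spp1 most closely across the 6 libraries were listed by Pearson's r of log2 CPM, among 11403 protein-coding genes with a mean of at least 5 CPM. They were Sqle (r = 0.998), a sterol synthesis enzyme, the cyclin gene Ccnd1 (0.998), Snx1 (0.998), Krt19 (0.997) and Frrs1 (0.997). These r values span 2 groups that differ and share depth and background, so they are a description of 6 libraries. Of the other members Sox9 was at 0.982, Krt18 at 0.965, Krt8 at 0.961, Krt7 at 0.924, Epcam at 0.825 and Slc4a4 at 0.709. Among the genes listed, log2 fold changes were -2.54 for Ccnd1, -2.01 for Snx1 and -1.34 for Frrs1, against -4.46 for Krt19.

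Some counts may be shared with neighbours. In the GENCODE M21 annotation exons of Spp1 overlap Gm42793 on the same strand, which had 13 to 27 counts in miR-206 libraries and 16 to 23 in control libraries. Krt7 overlaps the antisense gene Gm671 and Krt8 the lincRNA Gm36026 on the opposite strand, and the strand setting of the counting is not given in the sources used here. The pseudogene Krt8-ps had 3 to 8 counts in miR-206 libraries and 6 to 11 in control libraries.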

How the data were processed

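RNA of 6 libraries was measured by sequencing, per the labels with a SMARTER mRNA kit from total RNA. The authors deposited unnormalised whole-number counts for Ensembl genes, a column for each library. GRCm 38 and mm 10 are the builds in the submitters' processing notes. For the aligner, the counter and the strand setting, nothing is given in the sources used here. Of 49315 genes, 49056 matched GENCODE M21 by identifier, which gave positions and exonic lengths.

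Genes passing filterByExpr (minimum count 10) were TMM-scaled, and groups were compared by the robust quasi-likelihood test of edgeR 4.0.16, with no covariate and a threshold of 0.05 on p after Benjamini-Hochberg adjustment across all of them. CPM are TMM-scaled unless called CPM of the library. The fit was tested on simulated data. Background per kb came from 5760 exonic kb of receptor genes and was multiplied by the exonic length of a gene. Alternatives were DESeq2 1.42.0, other scalings and filters, subtraction, a replicate block and leaving out each library. Those combining subtraction with the hepatocyte scale or a 10-fold minimum were chosen after seeing the data.

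The members, lists and tests were chosen with earlier results of these data known. Named genes are the 8 members, for each list the 3 genes of smallest p, and the 5 genes most like the highest member. Krt23 was named after its values were seen. The design text gives 3 mice, but no label ties a library to a mouse, so p-values measure the spread between these libraries. A count of 0 allows 3 counts, or 0.197 to 0.722 CPM, which covers counting error only. R 4.3.3, limma 3.58.1, Python 3.11.15, scipy 1.17.1 and matplotlib 3.10.9 were also used.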

Additional observations from a re-analysis of the deposited data

How the results depend on the processing

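The number of members that fell was 7 with TMM scaling of the counts as deposited. It was 5 with library size alone or upper-quartile factors, 6 with the background subtracted, 5 with subtraction and the hepatocyte scale, 4 on the hepatocyte scale, 3 (and 1 that rose) after subtraction with an averaged 10-fold minimum, and 0 with the stricter minimum, where fewer members were tested. It ranged from 6 to 7 with 1 library left out. Epcam turned positive with library size alone (0.26), upper-quartile factors (0.01), the hepatocyte scale (1.18), subtraction with that scale (0.85) and the averaged minimum (1.37). Slc4a4 did so at 0.03, 1.29, 0.65 and 0.99 in the same settings other than upper quartile, and Sox9 at 0.17 on the hepatocyte scale. The cause was not tested. Spp1, Krt7, Krt8, Krt18 and Krt19 stayed negative in every fit that tested them. Over all genes, 7213 fell and 6289 rose. Falls were 3774 with library size alone, 631 on the hepatocyte scale, 1914 with subtraction and that scale, and 1300 and 648 with the averaged and the stricter minimum. Rises were 11642 with library size alone, 10629 with upper-quartile factors, 14004 on the hepatocyte scale, and 1187 and 804 with the minimums. With 1 library left out rises ranged from 1916 to 10674 and falls from 6202 to 8858. The median of all genes moved from 0.45 to 1.47 with library size alone, 1.25 with upper-quartile factors and 2.44 on the hepatocyte scale. No pairing by replicate number was seen, with correlations of deviations of 0.037, 0.037 and -0.006 for equal numbers, which cannot show whether libraries share a mouse. With the replicate block 7 members fell, 6697 genes fell and 5362 rose. With 12 to 46 counts of Krt19 and 9 to 31 of Sox9 per miR-206 library, depth limits the fold changes of both.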
